A study of Rattus norvegicus with 23 samples.

Results

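The comparison described here asks where heart and kidney differed in their response when an arteriovenous fistula was added to partial nephrectomy in rats. It rests on 16 of the 23 RNA-seq libraries of the series, 4 in each of 4 groups, which were chosen by organ and surgery alone. Heart AVF+NX and Kidney AVF+NX libraries came from Sprague-Dawley rats aged 13 weeks that had a 5/6 partial nephrectomy (NX) and a fistula in which the jugular vein was joined end to side to the carotid artery (AVF). Heart NX and Kidney NX libraries came from rats of the same strain and age with the nephrectomy alone, so all 4 groups carry it, and the tissue was taken 4 weeks after surgery. The labels do not say which chamber of the heart or which part of the remnant kidney was sampled, nor which heart and kidney came from 1 rat. In each gene the heart effect is AVF+NX minus NX in heart on the log2 scale, the kidney effect is the same contrast in kidney, and the organ difference is the heart effect minus the kidney effect. A negative organ difference therefore means a higher response in kidney than in heart.

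A fistula lets arterial blood pass straight into a vein, which raises venous return and the volume the heart has to pump. Nephrectomy of this kind leaves a remnant kidney that becomes scarred and takes in immune cells. T lymphocytes, B lymphocytes and macrophages each carry their own set of transcripts, so bulk RNA from a tissue also reads how many of these cells it holds. In bulk samples, fewer cells of a type and less RNA per cell cannot be told apart. Ribosomal protein genes, which return below, encode the structural proteins of the ribosome and are transcribed together in every cell.

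Stretches of 2 sets of genes are shown first because the results turn on them. Ribosomal protein messages characteristically begin with an unbroken run of pyrimidines at their start site. The 30 bases around the annotated start (15 on either side) are given for the ribosomal protein genes called in the organ difference, with the longest run of C and T in capitals, from RefSeq on GRCr8.
Rps15 (chr7:10068101-10068130, minus strand): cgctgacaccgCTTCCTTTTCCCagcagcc
Rps3 (chr1:163195762-163195791, minus strand): TTCCTTTCagcggcgcgcggcagcaagatg
Rps15a (chr1:181860270-181860299, minus strand): cggcgTTTTCTTTCCacagtcaccatggtg
The runs are 12, 8 and 10 bases long. In Rps15 the run spans the annotated start, in Rps15a it ends directly before it, and in Rps3 it ends further upstream. The Rps3 run begins at the edge of the window, so its full length is not shown. A run of at least 8 pyrimidines lies in this window in 16 of the 27 promoter entries of listed ribosomal protein genes (59.3%) and in 3831 of all 33469 entries (11.4%).

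The other set is T cell genes, with the motif GGAAGT in capitals on either strand (ACTTCC on the other), a form of the core read by ETS family factors. Il2ra encodes the alpha chain of the interleukin-2 receptor and Tcf7 a transcription factor of T cells. Each stretch is 150 bases from the 250 before the start, from the same table.
Il2ra (chr17:71808476-71808625, minus strand): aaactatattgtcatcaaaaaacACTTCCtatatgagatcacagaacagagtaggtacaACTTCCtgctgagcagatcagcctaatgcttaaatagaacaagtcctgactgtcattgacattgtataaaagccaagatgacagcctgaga
Tcf7 (chr10:36954380-36954529, minus strand): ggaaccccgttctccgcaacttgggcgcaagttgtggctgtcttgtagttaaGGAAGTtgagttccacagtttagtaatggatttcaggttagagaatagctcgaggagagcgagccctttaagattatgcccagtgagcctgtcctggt
The motif lies in the 250 bases before the start in 7 of 35 entries of the called genes (20%; 28 of the 34 genes had an entry) and in 6432 of 33469 entries overall (19.2%). A match is a description of the letters only.

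Heart libraries held 11889483 to 48079431 counts after AVF+NX and 9605973 to 22679092 after NX. Kidney libraries held 9503652 to 10416535 and 9360065 to 18782085 counts. The organs were as labelled. The cardiac genes Myh6 and Tnnt2 reached at least 28122 and 8471 CPM in every heart and at most 1.00 and 2.09 CPM in every kidney, and the tubular gene Lrp2 lay at 3817 CPM or more in every kidney and at 0.69 CPM or less in every heart. CPM here are counts per 1e6 of a library total scaled by TMM over both organs. Heart NX libraries 1 and 4 stood apart by an index of short structured RNAs, the mean log2 CPM of 89 genes of that kind, at 1.97 and 1.70 against 0.67 to 1.11 in the other 6 hearts.

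By edgeR the added fistula was followed by few called genes in heart and many in kidney, and 34 genes were called in the organ difference. Of 14689 genes tested with edgeR's quasi-likelihood test, 34 had an organ difference at an adjusted p below 0.05 (0.231%), 30 negative (0.204%) and 4 positive (0.0272%). Their adjusted p-values lay between 0.0312 and 0.042. In heart 5 genes were called (0.034%), 4 higher (0.0272%) and 1 lower (0.00681%), and in kidney 687 (4.68%), 640 higher (4.36%) and 47 lower (0.32%). With RLE in place of TMM scaling the kidney calls split 540 higher and 147 lower. With DESeq2 they split 813 and 424, the heart calls 181 higher and 343 lower, and the organ differences 129 positive and 204 negative.

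Leaving out 1 library decided how many organ differences were called. By edgeR the count was 0 without Heart AVF+NX 1, 2 or 3, Heart NX 1 or 4, or Kidney AVF+NX 1 (1609 to 1945 genes at an unadjusted p below 0.05 in these 6 fits, and 333 called by DESeq2 on all libraries), between 4 and 20 without Heart AVF+NX 4, Kidney AVF+NX 2 or 4 or Kidney NX 1, 2 or 3, and 80 and 52 without Heart NX 3 and Kidney NX 4. None of the 34 genes stayed called in all 16 of these fits, and all 34 kept their sign in each of them, with adjusted p-values between 0.00667 and 0.114. Without Heart NX 1 and 4 together, an alternative chosen after seeing the data, 4 genes were called, 2 of them among the 34. The heart count likewise rose to 371 and 296 without Heart NX 2 and 3, and the kidney count went to 281 without Kidney NX 3, 306 without Kidney AVF+NX 1 and 1179 without Kidney AVF+NX 3.

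Most of the negative calls had a called kidney rise. Of the 30 genes, 29 were themselves called higher in kidney, and in 29 the Kidney AVF+NX and Kidney NX libraries did not overlap (7.97% of all genes had non-overlapping kidney groups with AVF+NX higher). None of the 30 was called in heart by edgeR, where the smallest adjusted p was 0.0875. In the authors' deposited heart table Rps15, Rps3, Rps15a and Ehbp1l1 had an adjusted p below 0.05. The heart effect was negative in 25 of the 30, and in 6 all AVF+NX hearts lay below all NX hearts (4.03% of all genes). Their median kidney effect was 1.62 and their median heart effect was −0.29, on the log2 scale. These counts share libraries with the contrast that chose the genes and are given as a description.

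**Figure D1:**
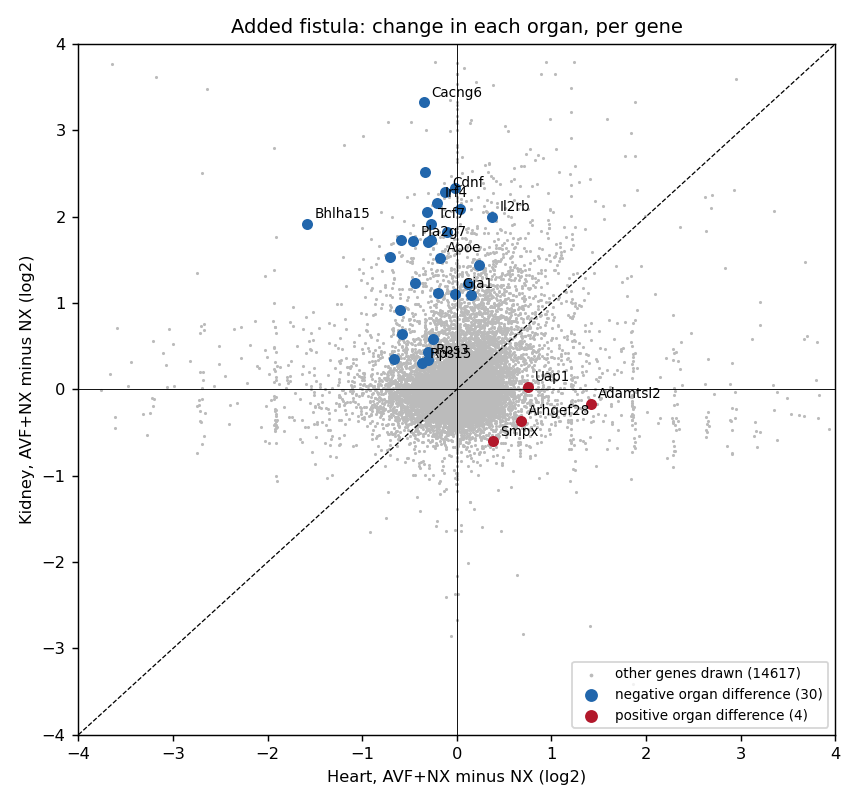
Each point is a gene, with the heart effect on the x axis and the kidney effect on the y axis (AVF+NX minus NX, log2), and the dashed line marks equal effects. The 30 genes with a negative organ difference (blue) lie above the line and the 4 with a positive one (red) below it; 38 of the 14689 genes fall outside the axes and none of them is called.

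Every chain of the interleukin-2 receptor was among the negative calls. This receptor drives the growth of activated T cells and natural killer cells, and its gamma chain also serves other interleukin receptors. Il2rb (beta chain, 7:119701251-119716238 in the files, minus strand) stood at 18.1, 10.3, 17.8 and 15.8 CPM in the Kidney AVF+NX libraries and at 4.11, 4.09, 2.83 and 4.33 CPM in Kidney NX. In heart it stood at 19.1, 16.3, 18.9 and 22.9 CPM after AVF+NX and at 11.5, 18.0, 14.1 and 15.2 CPM after NX. The kidney groups were fully apart, while the heart groups overlapped through Heart NX 2, and 3 of the 4 kidneys with a fistula lay within the range of the hearts, with Kidney AVF+NX 2 below it. Its kidney effect was a 4.00-fold rise (log2 2.00, SE 0.20, edgeR adjusted p 0.000195), its heart effect was 0.38 (SE 0.18, adjusted p 0.304), and its organ difference was −1.62 (SE 0.27, adjusted p 0.0312).

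Il2rg, the shared gamma chain, reached 27.6, 21.9, 33.4 and 23.3 CPM in Kidney AVF+NX against 9.87, 10.9, 6.82 and 11.2 CPM in Kidney NX. Hearts held 24.2, 25.8, 28.3 and 21.0 CPM after AVF+NX and 23.7, 21.1, 20.5 and 19.3 CPM after NX. Again the kidneys separated and the hearts did not, and the organ difference was −1.21 (SE 0.22, edgeR adjusted p 0.034). Il2ra, the high-affinity alpha chain, was scarce in every library. It measured 4.62, 5.23, 2.85 and 3.55 CPM in Kidney AVF+NX and 1.26, 0.84, 0.35 and 1.29 CPM in Kidney NX, with 1.04 to 2.05 CPM in Heart AVF+NX and 1.46 to 2.72 CPM in Heart NX. Its organ difference was −2.37 (SE 0.47, edgeR adjusted p 0.042).

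Tcf7, Irf4, Ikzf3, Bcl11b, Runx3 and Nfatc2, which encode transcription factors, were among the negative calls. Tcf7 (10:37617279-37645802 in the files, minus strand), needed for T cell development, was at 14.6, 14.6, 24.4 and 14 CPM in Kidney AVF+NX and at 5.84, 5.77, 2.83 and 3.53 CPM in Kidney NX. The hearts held 4.25, 5.25, 4.91 and 4.73 CPM after AVF+NX and 7.65, 3.93, 5.75 and 6.27 CPM after NX. All kidneys with a fistula lay above all kidneys without, and the heart groups overlapped at a level close to that of the NX kidneys. The kidney rise was 3.78-fold (log2 1.92, SE 0.25, edgeR adjusted p 0.000809) and the organ difference was −2.19 (SE 0.36, adjusted p 0.0312).

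Irf4, which acts in activated lymphocytes and plasma cells, measured 17.1, 11.5, 9.80 and 17.0 CPM in Kidney AVF+NX against 3.08, 3.34, 2.13 and 3.68 CPM in Kidney NX. Hearts stayed between 1.21 and 2.85 CPM in both groups, so the separation was in kidney, and the organ difference was −2.37 (SE 0.43, edgeR adjusted p 0.034). Ikzf3, a factor of B cells and plasma cells, rose 5.03-fold in kidney (log2 2.33, SE 0.30, edgeR adjusted p 0.000809) from 1.68 to 5.05 CPM in NX to 13.1 to 21.4 CPM in AVF+NX. Its heart effect was −0.02 (SE 0.32) and its organ difference −2.35 (SE 0.44).

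Bcl11b, a T cell identity factor, and Runx3, a factor of cytotoxic T cells, had organ differences of −2.24 (SE 0.42) and −2.01 (SE 0.38). The mean of Runx3 in heart was 0.79 CPM, so its organ difference is listed as a call and not read further. Nfatc2, a calcium-regulated factor that switches on cytokine genes in T cells, was at 13.4 to 16.7 CPM in Kidney AVF+NX and 6.08 to 9.56 CPM in Kidney NX, with 11.9 to 17.3 CPM in Heart AVF+NX and 15.9 to 32.8 CPM in Heart NX. Its organ difference was −1.52 (SE 0.29, edgeR adjusted p 0.035), with a kidney rise and a heart effect of −0.60 (SE 0.20, adjusted p 0.16). Bhlha15, a factor of secretory cells including plasma cells, was at 2.29 to 4.55 CPM in Kidney AVF+NX, 0.84 to 1.06 CPM in Kidney NX and 0.03 to 0.69 CPM in hearts. At this heart level the organ difference of Bhlha15 is not read either.

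Gimap7, Tbc1d10c and Sema4d were also among the negative calls. Gimap7, a GTPase of lymphocytes, stood at 15.3, 10.2, 21.7 and 12.0 CPM in Kidney AVF+NX and 3.47, 4.01, 2.83 and 3.53 CPM in Kidney NX, with overlapping heart groups at 7.48 to 15.2 CPM. Its organ difference was −2.06 (SE 0.38, edgeR adjusted p 0.034). Tbc1d10c, a brake on T cell receptor signalling, differed by −2.31 (SE 0.39) and Sema4d, a surface semaphorin of T cells that other cells also make, by −0.75 (SE 0.13). In Sema4d the groups did not overlap in either organ, with AVF+NX higher in kidney and lower in heart. Kidneys were at 46.3 to 59.3 CPM after AVF+NX and 37.2 to 38.5 CPM after NX, and hearts at 53.0 to 58.0 CPM after AVF+NX and 58.8 to 74.9 CPM after NX.

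Pla2g7, Ncf1 and Apoe were negative calls as well. Pla2g7, the secreted enzyme that breaks down platelet-activating factor and is made by macrophages, measured 19.1, 11.1, 23.5 and 16.7 CPM in Kidney AVF+NX and 5.45, 7.6, 2.83 and 5.47 CPM in Kidney NX. In heart it measured 14.8, 13.1, 10.6 and 14.6 CPM after AVF+NX and 17.8, 17.4, 15.4 and 22.4 CPM after NX. All fistula kidneys were high and all fistula hearts were low against their own NX group, and only the kidney effect passed the test (3.28-fold, log2 1.71, SE 0.25, edgeR adjusted p 0.00139, against −0.46, SE 0.24, adjusted p 0.326 in heart). Over all genes, 24 (0.163%) had non-overlapping groups that were lower in heart and higher in kidney, and 17 (0.116%) the reverse.

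Ncf1, a cytosolic subunit of the phagocyte NADPH oxidase, was at 68.7, 34.8, 43.9 and 35.0 CPM in Kidney AVF+NX and 14.1, 13.2, 7.53 and 19.4 CPM in Kidney NX. Hearts held more of it in both groups, 150 to 191 CPM after AVF+NX and 190 to 231 CPM after NX, and its organ difference was −2.0 (SE 0.33, edgeR adjusted p 0.0312). Apoe, the lipid carrier that macrophages and tubules make, stood at 2106, 1130, 1540 and 964 CPM in Kidney AVF+NX against 546, 622, 466 and 360 CPM in Kidney NX. Apoe in hearts spanned 94.8 to 162 CPM with the groups overlapping, and its organ difference was −1.71 (SE 0.33, edgeR adjusted p 0.0416).

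Ucp2, a carrier of the inner mitochondrial membrane, was at 125, 105, 94.3 and 98.6 CPM in Kidney AVF+NX and 50.5, 46.9, 38.2 and 45.8 CPM in Kidney NX, with 344 to 554 CPM in hearts. Its kidney rise was 2.33-fold and its organ difference −1.10 (SE 0.20, edgeR adjusted p 0.0335). Tgfbi, a matrix protein induced by TGF-beta, was at 45.4 to 57.5 CPM in Kidney AVF+NX and 19.7 to 28.6 CPM in Kidney NX, and hearts spanned 50.3 to 74.7 CPM. In Tgfbi the organ difference was −0.94 (SE 0.18, edgeR adjusted p 0.0416). Pycr1, which makes proline, differed by −2.85 (SE 0.50) on few reads, since Kidney NX libraries held 1 to 4 counts and Kidney AVF+NX libraries 9 to 18. Gpsm3, a G protein modulator of leukocytes (−1.32, SE 0.25), Agap2, a GTPase-activating protein (−1.68, SE 0.33), and Ehbp1l1 (−1.22, SE 0.23) were also negative. They stand outside the rule for named genes, as do Sh3rf3, Obsl1, Runx3, Bhlha15 and Rps15a, and were chosen after their values were seen, to complete the set of calls.

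**Figure D2:**
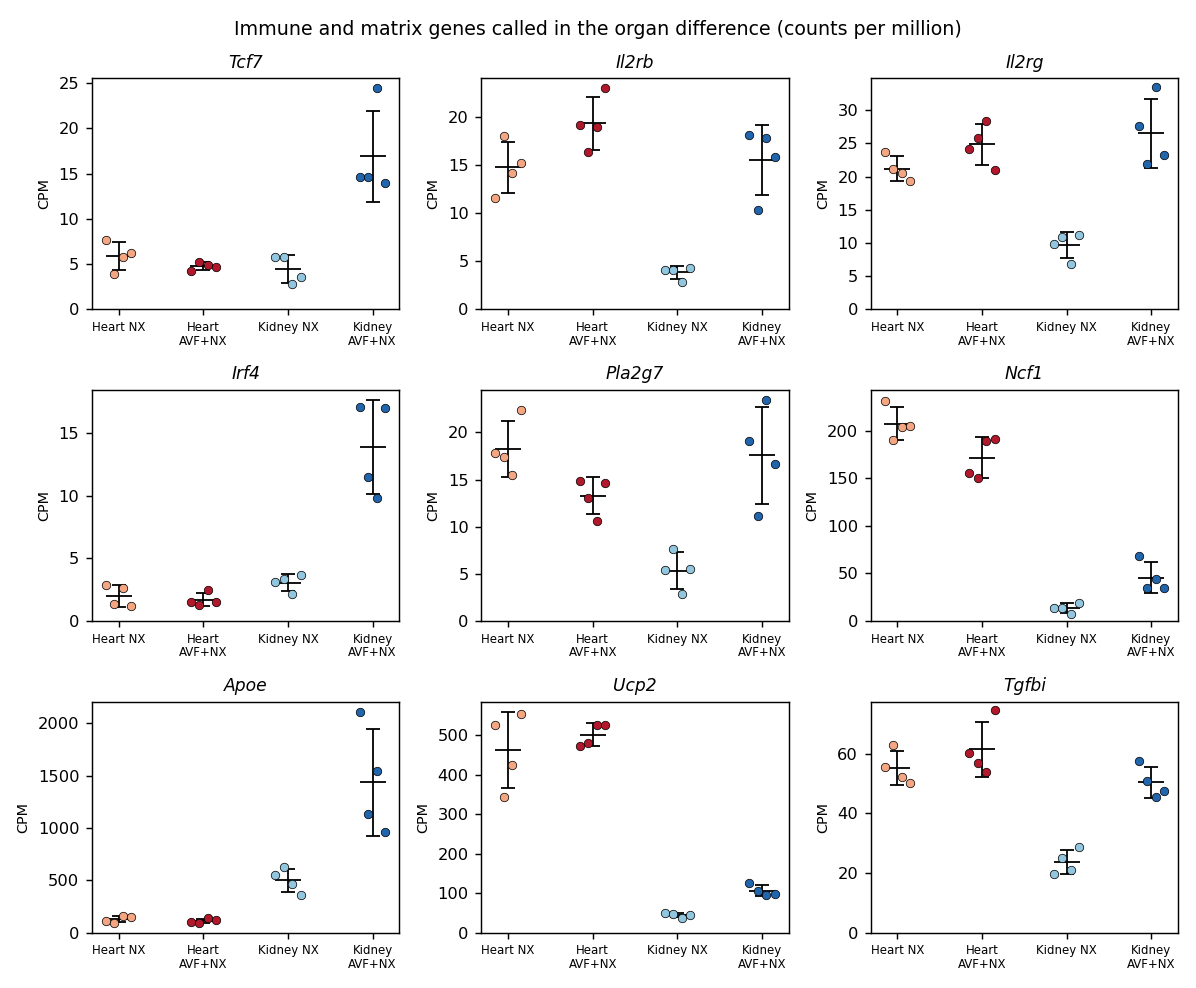
CPM per library (points) of 9 called genes in the 4 groups, with the mean and SD as bars (n = 4 each). Kidney AVF+NX lies above Kidney NX without overlap in every panel, while in the heart pair the groups overlap or, in Pla2g7, AVF+NX lies lower.

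Lists of immune cell markers were read in both organs next. Among T and NK cell markers, 10 of 15 tested were called higher in kidney against 4.36% of all genes, 0 were called in heart (edgeR; 0 at an unadjusted p below 0.05, and 0 with DESeq2), and all 15 had a negative organ difference. At an unadjusted p below 0.05, 10 of the 15 had a negative organ difference against 8.54% of all genes, and none passed the adjusted threshold (edgeR; 4 with DESeq2). The list's median effect was 1.63 in kidney and 0.09 in heart, against 0.00 and 0.04 over all genes. Zap70, a kinase of the T cell receptor, gives an example: 16, 9.73, 10.7 and 6.08 CPM in Kidney AVF+NX, 2.53, 3.26, 0.89 and 3.11 CPM in Kidney NX, and 1.27 to 2.77 CPM in all hearts. Its organ difference was −1.94 (SE 0.53, edgeR adjusted p 0.136), so the fit did not call it. The 10 kidney calls became 4 without Kidney AVF+NX 1 or Kidney NX 3 and 6 without Kidney NX 1 or 2.

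B and plasma cell markers had a kidney median of 2.61 over 10 genes and a heart median of 0.27. In kidney 9 of the 10 were called higher, against 4.36% of all genes. With at least 1 CPM asked for in both organs, 1 of the 10 was left, with an organ difference of −0.14. The others passed the filter through kidney, so their organ differences are not read here. Jchain, which joins secreted antibody chains and marks plasma cells, was at 211, 160, 84.7 and 205 CPM in Kidney AVF+NX, 35.6, 35.1, 4.52 and 32.0 CPM in Kidney NX and below 0.80 CPM in every heart. Ms4a1, which encodes CD20 of B cells, ran from 2.90 to 7.90 CPM in Kidney AVF+NX and from 0 to 0.76 CPM in Kidney NX, and reached at most 0.44 CPM in hearts.

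Macrophage markers had mostly positive effects in both organs, with the higher median in kidney. Of 19 genes, 13 were called higher in kidney, against 4.36% of all genes (7 without Kidney AVF+NX 1, 8 without Kidney NX 2). In heart 16 had a positive effect and 0 were called by edgeR (2 by DESeq2). At an unadjusted p below 0.05, 3 were higher in heart by edgeR, against 9.01% of all genes. In 5 of the 19 the AVF+NX hearts lay above the NX hearts without overlap, against 4.89% of all genes. The median was 1.37 in kidney and 0.38 in heart. A negative organ difference at an unadjusted p below 0.05 was found in 10 of 19, against 8.54% of all genes. The 10 became 6 without Heart NX 1 and 4, and 5 with the short structured RNA index as a covariate. None of these organ differences was called by edgeR (3 by DESeq2). Cd68, a lysosomal protein of macrophages, stood at 65.7, 28.9, 45.8 and 40.5 CPM in Kidney AVF+NX and 11.2, 16.7, 6.02 and 9.65 CPM in Kidney NX. In Heart AVF+NX it stood at 9.34, 7.67, 8.54 and 8.65 CPM and in Heart NX at 5.71, 5.61, 6.04 and 9.41 CPM, so that only NX library 4 reached the fistula hearts. C1qa, a complement subunit that macrophages make, differed from Cd68 in heart, with 10.6 to 16.1 CPM after AVF+NX and 28.3, 7.97, 10.2 and 37.0 CPM after NX, where libraries 1 and 4 were high.

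MHC class II genes, which present antigen to T cells, were called higher in kidney in 8 of 9, against 4.36% of all genes. The 8 became 5 without Kidney AVF+NX 1 or Kidney NX 3. The list's medians were 1.12 in kidney and 0.31 in heart. Cd74, the invariant chain of these molecules, was at 1832, 1037, 1360 and 1345 CPM in Kidney AVF+NX and 623, 774, 542 and 622 CPM in Kidney NX. Its hearts overlapped at 401 to 594 CPM, and its organ difference was −1.01 (SE 0.23, edgeR adjusted p 0.078). Of 19 complement genes, 8 were called higher in kidney, against 4.36% of all genes. The 8 became 3 without Kidney AVF+NX 1, 4 without Kidney AVF+NX 4 and 5 without Kidney NX 3. Medians of the complement genes were 0.96 in kidney and 0.29 in heart.

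Markers of tubule segments and of tissue next to the kidney also differed among its libraries. The summed level of thick ascending limb and distal tubule genes was 4529 to 6534 CPM in Kidney AVF+NX and 7412 to 8151 CPM in Kidney NX, and that of collecting duct genes 1115 to 1522 and 1605 to 2027 CPM, with no overlap in either. Of 13 and 15 genes tested, 12 and 15 had a negative kidney effect, and 3 and 1 were called lower (0.32% of all genes; 0 and 0 without Kidney AVF+NX 1, 7 and 4 without Kidney AVF+NX 3, 8 and 6 with DESeq2). The summed level of urothelial markers was 2.61 to 63.6 CPM in Kidney AVF+NX and 0.53 to 10.8 CPM in Kidney NX, of adrenal cortex markers 26.5 to 95.4 and 21.4 to 31.9 CPM, and of adipocyte markers 69.4 to 98.9 and 22.5 to 139 CPM. None of the 5 urothelial, 2 adrenal or 7 adipocyte genes tested was called in kidney by edgeR on all 16 libraries without a replicate block (4, 1 and 1 at an unadjusted p below 0.05) or by DESeq2. Calls appeared in 1 of the urothelial markers without Kidney AVF+NX 3, in 1 of the adrenal cortex markers without Kidney AVF+NX 2 and in 3 of the adipocyte markers without Kidney NX 1. The part of these tubule, urothelial, adrenal and adipocyte levels in the immune results was not tested.

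Interferon-stimulated genes and cell cycle genes were higher in both organs by point estimate. Of 38 interferon-stimulated genes, 37 had a positive kidney effect and 34 a positive heart effect, with medians of 0.86 and 0.57. Calls were made by edgeR in 7 of the 38 in kidney, against 4.36% of all genes, and 0 in heart (1 by DESeq2). In heart 12 were positive at an unadjusted p below 0.05, against 9.01% of all genes. Of the 38, 4 had a negative organ difference at an unadjusted p below 0.05, against 8.54% of all genes. Irf1, a transcription factor of this response, was at 34.5 to 35.3 CPM in Kidney AVF+NX and 14.6 to 25.7 CPM in Kidney NX, and overlapped in hearts between 20.8 and 32.0 CPM. The 7 kidney calls became 0 without Kidney AVF+NX 1, 1 without Kidney NX 3, 3 without Kidney NX 1 and 12 without Kidney AVF+NX 3, and 14 with DESeq2. Without Kidney AVF+NX 1 the kidney median was 0.48 and the median organ difference moved from −0.30 to 0.04, and without Heart AVF+NX 1 the heart median was 0.36.

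No cell cycle gene was called in the organ difference by edgeR (1 at an unadjusted p below 0.05) or by DESeq2. The median heart effect over 34 genes was 0.85 and the median kidney effect 0.55. By edgeR 1 member was called higher in kidney (4.36% of all genes), and 0 when any of 11 single libraries was left out. In heart 0 were called by edgeR and 6 by DESeq2. At an unadjusted p below 0.05, 19 were higher in heart by edgeR, against 9.01% of all genes. Mki67, a marker of dividing cells, stood at 32.7, 33.4, 17.3 and 14.1 CPM in Heart AVF+NX and 20.5, 9.25, 9.76 and 8.20 CPM in Heart NX. In kidney it stood at 35.6, 38.3, 22.3 and 26.8 CPM after AVF+NX and 21.7, 18.9, 12.8 and 20.2 CPM after NX. The fistula kidneys were all above the NX kidneys, the hearts overlapped through NX library 1, and the organ difference of 0.33 had an SE of 0.44 (edgeR adjusted p 0.762).

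Matrix genes had positive medians in both organs, the higher one in kidney. Of 24 collagens and matrix proteins, 7 were called higher in kidney (4.36% of all genes), 5 had non-overlapping hearts with AVF+NX higher (4.89% of all genes), and medians were 1.05 in kidney and 0.39 in heart. The 7 kidney calls became 1 without Kidney AVF+NX 1, 2 without Kidney NX 3, 4 without Kidney AVF+NX 2 or 4 or Kidney NX 1, 13 without Kidney NX 2 and 16 without Kidney AVF+NX 3, and 14 with DESeq2. The organ difference was called in 1 member, Adamtsl2, described below, and 7 others were negative at an unadjusted p below 0.05 (8.54% of all genes). Col1a1, the main fibrillar collagen, was at 2190, 1647, 974 and 1624 CPM in Kidney AVF+NX and 506, 979, 238 and 436 CPM in Kidney NX. In Heart AVF+NX it was at 897, 825, 609 and 555 CPM and in Heart NX at 354, 570, 652 and 691 CPM. Kidney AVF+NX 3 lay just below Kidney NX 2, so the kidney groups overlapped, as the hearts did. Col1a1 rose 2.98-fold in kidney (edgeR adjusted p 0.017), and its organ difference of −1.23 (SE 0.49, adjusted p 0.265) was not called. Fibroblast markers were positive in all 16 members in both organs, with medians of 0.62 in kidney and 0.45 in heart. In kidney 6 were called higher, against 4.36% of all genes. The 6 became 1 without Kidney AVF+NX 1 or Kidney NX 3, 2 without Kidney AVF+NX 4 and 3 without Kidney AVF+NX 2. Of the 16 members, 1 had a negative organ difference at an unadjusted p below 0.05, against 8.54% of all genes.

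**Figure D3:**
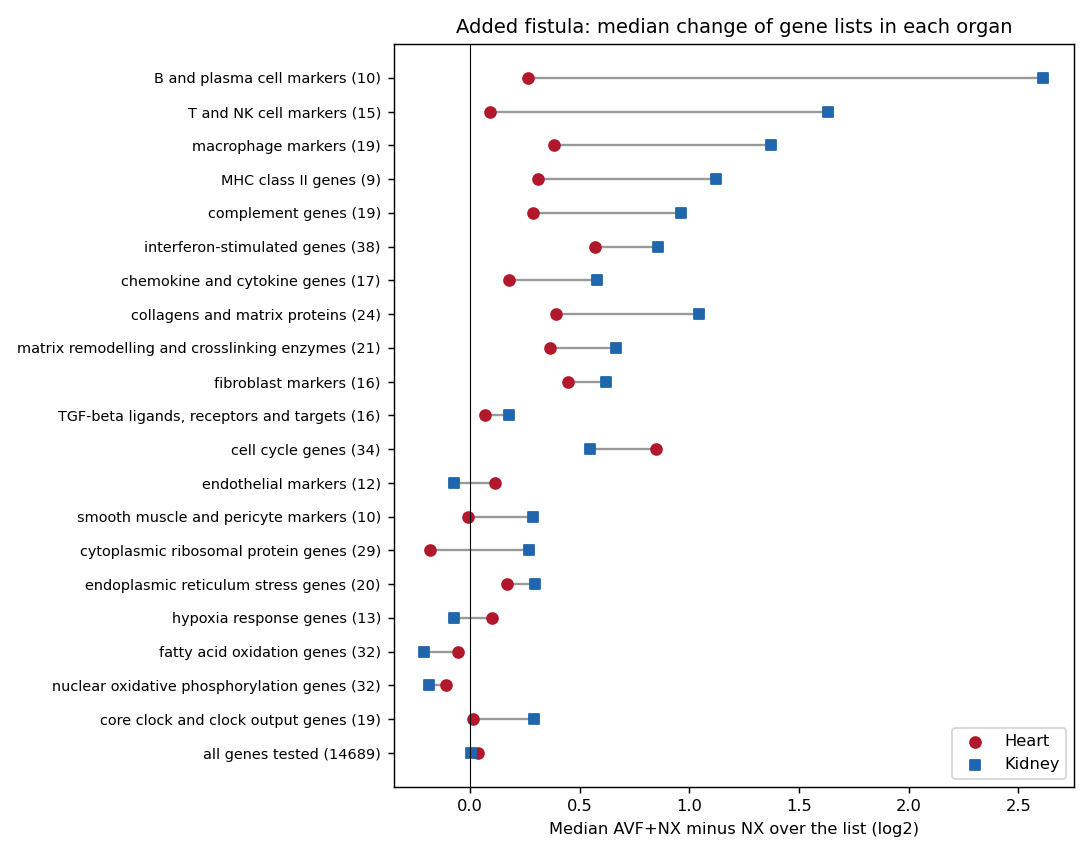
Median log2 change (AVF+NX minus NX) of gene lists in heart (red circles) and kidney (blue squares), with the number of genes tested in brackets. B and plasma cell markers lie at 0.27 in heart and 2.61 in kidney, while ribosomal protein genes lie at −0.18 in heart and 0.27 in kidney.

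The 640 genes called higher in kidney were read in heart as well. Of these, 457 had a positive heart effect, their median heart effect was 0.20 against 0.04 over all genes, and 71 had non-overlapping hearts with AVF+NX higher (4.89% of all genes) and 9 with AVF+NX lower (4.03%). Of the 640, 29 were called in the organ difference, all negative, against 0.204% of all genes. The kidney effect enters the organ difference, so this count is raised by the choice of the genes and is given as a description.

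Ribosomal protein genes had a lower summed CPM in heart and a higher one in kidney after the fistula. Summed over the 29 genes tested, they stood at 6270, 6763, 6808 and 6963 CPM in Heart AVF+NX and 7615, 7781, 7530 and 7886 CPM in Heart NX. In kidney they stood at 7703, 6884, 6908 and 7107 CPM after AVF+NX and 5939, 6139, 5862 and 6122 CPM after NX. These CPM are scaled by TMM over both organs and are not shares of a library. The fistula hearts were all low and the fistula kidneys all high, with no overlap in either organ. All 29 genes had a negative organ difference, with a median of −0.46. Of the 29, 22 were negative at an unadjusted p below 0.05 (8.54% of all genes), and 2 were called. In heart 26 had a negative effect and 9 were lower without overlap (4.03% of all genes), but 0 were called by edgeR and 8 by DESeq2. At an unadjusted p below 0.05 by edgeR, 11 were negative in heart, against 7.94% of all genes. In kidney all 29 had a positive effect, 16 were higher without overlap (7.97% of all genes) and 5 were called (4.36%; 0 with RLE scaling). Among cytoplasmic ribosomal protein genes the 5 kidney calls became 0 without Kidney AVF+NX 1 or 4 or Kidney NX 3, 1 without Kidney AVF+NX 2, 2 without Heart AVF+NX 3 and 3 without Heart AVF+NX 1, 2 or 4. Mitochondrial transcripts took 22.1% to 26% of the counts in Heart AVF+NX and 18.9% to 21.4% in Heart NX, without overlap, and 5.71% to 9.03% and 4.15% to 9.63% in kidney. The part of this mitochondrial share in the ribosomal result was not tested.

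The direction held under each scaling tried: the median organ difference of the list was −0.42 with RLE scaling and −0.48 with TMM within each organ. Their effects are small, and some of these genes have near-identical processed copies in the genome that could share reads, so single-gene values are less certain than the sum.

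Rps15 (7:12282109-12283608 in the files, minus strand), whose start is printed above, was at 196, 210, 199 and 210 CPM in Heart AVF+NX and 288, 233, 255 and 276 CPM in Heart NX. In kidney it was at 271, 249, 260 and 254 CPM after AVF+NX and 211, 209, 202 and 218 CPM after NX. Each organ separated completely, in opposite directions. The organ difference was −0.67 (SE 0.12, edgeR adjusted p 0.0335), made of a kidney rise of 0.30 (SE 0.08, adjusted p 0.0428) and a heart effect of −0.37 (SE 0.08, adjusted p 0.0931).

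Rps3 showed the same order, at 178 to 207 CPM in Heart AVF+NX, 225 to 249 CPM in Heart NX, 195 to 226 CPM in Kidney AVF+NX and 156 to 171 CPM in Kidney NX. Its organ difference was −0.65 (SE 0.11, edgeR adjusted p 0.0335). Rps15a was called as well (−1.01, SE 0.20, edgeR adjusted p 0.0416). It was at 59.7, 71.4, 71.0 and 64.6 CPM in Heart AVF+NX and 124, 85.2, 81.9 and 132 CPM in Heart NX, where libraries 1 and 4 were highest. Neither arm of Rps15a passed edgeR's test alone, with a kidney effect of 0.35 (SE 0.14) and a heart effect of −0.66 (SE 0.14). In the authors' deposited tables both arms of Rps15a had an adjusted p below 0.05. Rps15a is not a member of the list, so the 2 list members called are Rps15 and Rps3.

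Of the 4 positive calls, 3 were called higher in heart and 2 lower in kidney. Arhgef28 (2:25738514-26011429 in the files, minus strand), an exchange factor that activates the GTPase RhoA, was at 14.8, 13.7, 11.6 and 11.0 CPM in Heart AVF+NX and 8.17, 7.17, 8.96 and 7.84 CPM in Heart NX. In kidney it was at 90.9, 91.0, 98.5 and 78.5 CPM after AVF+NX and 109, 114, 118 and 119 CPM after NX. It was higher in every fistula heart and lower in every fistula kidney, and 3.59% of all genes had kidney groups apart with AVF+NX lower. Both arms passed the test, with a heart rise of 0.68 (SE 0.12, edgeR adjusted p 0.0491), a kidney fall with a log2 change of −0.36 (SE 0.10, adjusted p 0.0482) and an organ difference of 1.04 (SE 0.15, adjusted p 0.0312).

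Smpx, a small protein of striated muscle, stood at 465, 450, 492 and 443 CPM in Heart AVF+NX and 317, 412, 381 and 311 CPM in Heart NX. Its kidney level was 6.58, 6.59, 9.01 and 8.60 CPM after AVF+NX and 12.9, 10.9, 10.6 and 12.1 CPM after NX. The groups separated in both organs, and the organ difference was 0.98 (SE 0.17, edgeR adjusted p 0.0335). The kidney fall passed the test (−0.60, SE 0.13, adjusted p 0.0142) and the heart effect did not (0.38, SE 0.11, adjusted p 0.133).

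Uap1, which makes the sugar donor UDP-N-acetylglucosamine, changed in heart. It reached 55.5, 63.1, 57.7 and 50.6 CPM in Heart AVF+NX against 31.0, 35.8, 35.1 and 33.0 CPM in Heart NX, a 1.68-fold rise (log2 0.75, SE 0.09, edgeR adjusted p 0.00401). All kidneys lay between 17.0 and 20.1 CPM, with a kidney effect of 0.03 (SE 0.10) and an organ difference of 0.72 (SE 0.13, edgeR adjusted p 0.034). Adamtsl2, a secreted glycoprotein of the microfibril matrix, was at 25.9, 28.3, 17.9 and 20.4 CPM in Heart AVF+NX and 8.56, 6.88, 9.90 and 9.65 CPM in Heart NX, a 2.67-fold rise (edgeR adjusted p 0.0382). Its kidneys overlapped at 26.7 to 60.8 CPM after AVF+NX and 43.8 to 54.4 CPM after NX. The organ difference of Adamtsl2 was 1.58 (SE 0.29, edgeR adjusted p 0.034).

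Among named genes with a positive organ difference, those next in order by p did not pass. The naming by p reached genes that did not pass in this direction only, so their sign is not read. Syt17, a synaptotagmin, Prkcz, an atypical protein kinase C, and Mest, an imprinted gene, had organ differences of 1.19 (SE 0.24), 0.96 (SE 0.20) and 1.78 (SE 0.38) with edgeR adjusted p-values of 0.0516, 0.0616 and 0.0699. Mest was at 5.14, 3.89, 5.36 and 3.46 CPM in Heart AVF+NX and 1.17, 1.5, 2.33 and 1.21 CPM in Heart NX. Fistula hearts were all higher, and kidneys overlapped between 1.26 and 2.29 CPM. Ccdc141 (0.74, SE 0.16), Aif1l (0.94, SE 0.20) and Sgms2, a sphingomyelin synthase (0.89, SE 0.19), each had an adjusted p of 0.0758. Emcn, an endothelial surface glycoprotein named from a gene list, had an organ difference of 0.69 (SE 0.16, edgeR adjusted p 0.078). It was at 68.8 to 76.9 CPM in Heart AVF+NX and 42.7 to 59.1 CPM in Heart NX, with overlapping kidneys.

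A further set of negative calls is abundant in heart and rose in kidney from a low level. Gja1, which encodes the gap junction protein connexin 43, was at 77.5, 67.6, 57.8 and 67.5 CPM in Kidney AVF+NX and 38.9, 34.5, 26.9 and 25.4 CPM in Kidney NX. Hearts overlapped at 912 to 1281 CPM. The kidney rise was 2.16-fold (log2 1.11, SE 0.16, edgeR adjusted p 0.00112) and the organ difference −1.12 (SE 0.21, adjusted p 0.035). Obsl1, a cytoskeletal relative of obscurin, was at 33.4 to 38.5 CPM in Kidney AVF+NX and 22.9 to 26.4 CPM in Kidney NX against 107 to 174 CPM in hearts, with an organ difference of −0.84 (SE 0.16).

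Cdnf, a secreted factor of the endoplasmic reticulum, Cacng6, a calcium channel subunit, and Sh3rf3, a scaffold protein, rested on few kidney reads. Cdnf had 9, 11, 10 and 8 counts in Kidney AVF+NX and 2, 3, 0 and 4 counts in Kidney NX, while hearts held 99.6 to 135 CPM with overlapping groups. Its organ difference was −2.41 (SE 0.39, edgeR adjusted p 0.0312). Cacng6 had 8 to 31 against 0 to 4 kidney counts, and Sh3rf3 8 to 17 against 3 to 6. Cacng6 differed by −3.68 (SE 0.63) and Sh3rf3 by −1.93 (SE 0.36), and in both the kidney groups were apart and the heart groups overlapped. Myh6, Tnnt2, Tnni3, Actc1, Ryr2 and Myl2 overlapped between the kidney groups, with Myh6 at 0.24 to 0.42 CPM after AVF+NX and 0.04 to 1.00 CPM after NX. The summed level of cardiac contractile genes was 315 to 442 CPM in Kidney AVF+NX and 268 to 329 CPM in Kidney NX. Of the 18 tested, 7 had a positive and 11 a negative kidney effect. Des was called higher in kidney (0.69, SE 0.17, edgeR adjusted p 0.0292). The part of muscle RNA in these kidney calls was not tested.

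**Figure D4:**
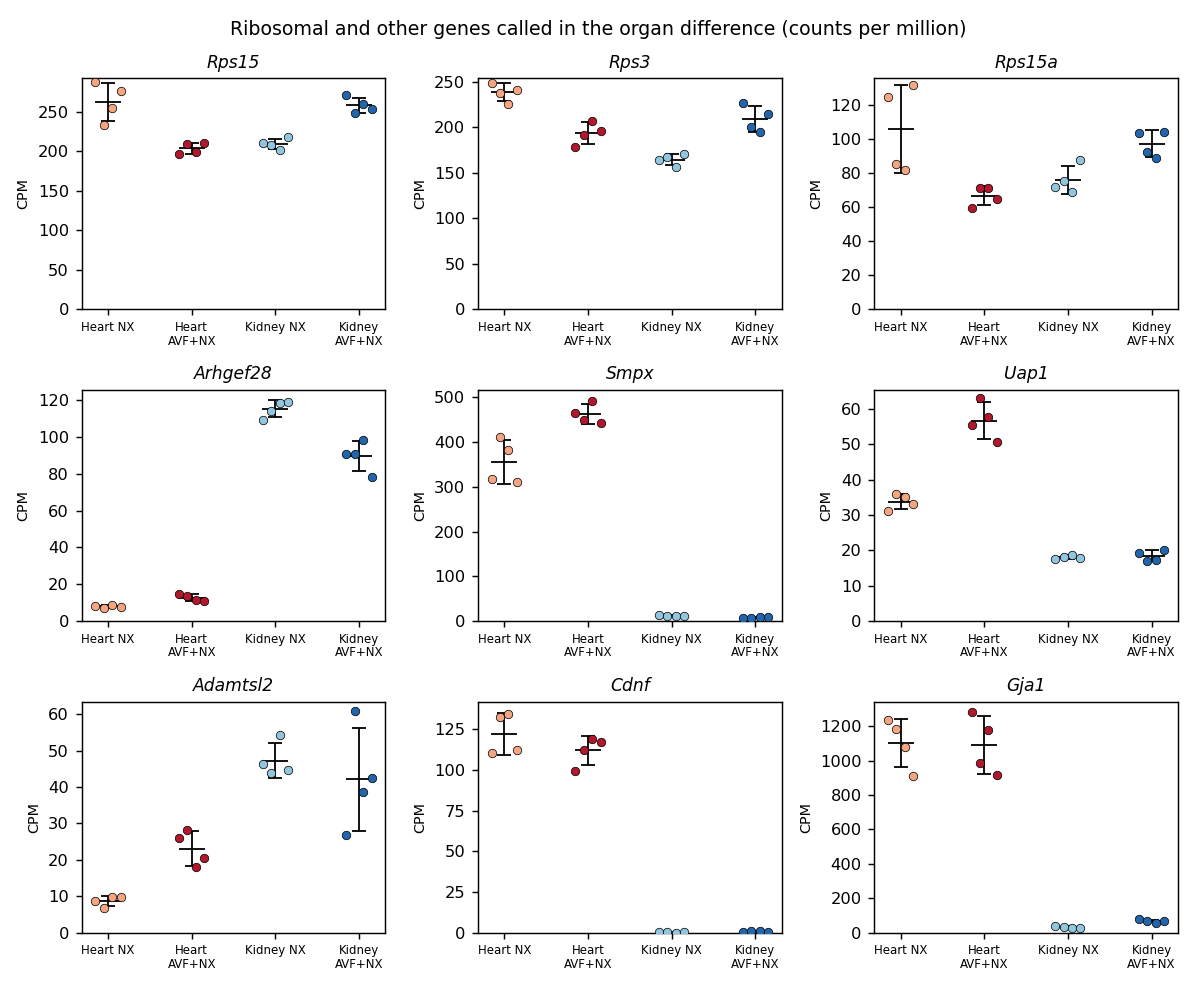
CPM per library (points) with mean and SD (bars, n = 4 each) of ribosomal protein genes (top), the 4 positive calls and heart-abundant genes. Rps15, Rps3 and Rps15a are lower in AVF+NX hearts and higher in AVF+NX kidneys without overlap, and Uap1 separates in heart alone.

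Genes expressed in 1 organ carry no organ difference that can be read. Nppa, the atrial natriuretic peptide, stood at 1193, 440.3, 253 and 260 CPM in Heart AVF+NX and 73.4, 105, 245 and 255 CPM in Heart NX, and at most 0.08 CPM in kidneys. Nppb, the B-type peptide, was at 328, 467, 430 and 208 CPM against 101, 204, 176 and 263 CPM, with 0 counts in every kidney. The heart groups of both genes overlapped, with Nppa highest in AVF+NX 1, and neither heart effect passed the test (edgeR adjusted p 0.126 and 0.188). Umod, the main urinary protein of the thick limb, was at 1419 to 2318 CPM in Kidney AVF+NX and 2229 to 2979 CPM in Kidney NX, and at most 0.26 CPM in hearts.

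Genes of energy metabolism had negative medians in both organs. Over 32 fatty acid oxidation genes the medians were −0.06 in heart and −0.21 in kidney, where 27 of the 32 were negative. None was called in either organ by edgeR, while DESeq2 called 4 lower in heart and 3 lower in kidney. At an unadjusted p below 0.05 by edgeR, 7 were lower in heart (7.94% of all genes) and 6 lower in kidney (802 of all 14689 genes). At that p, 3 had a positive organ difference (5.94% of all genes) and 1 a negative one (8.54%). None of these organ differences was called by edgeR or by DESeq2. Etfb, which passes electrons from fatty acid oxidation, was at 161 to 178 CPM in Heart AVF+NX and 208 to 303 CPM in Heart NX with overlapping kidneys, and had an organ difference of −0.56 (SE 0.20, edgeR adjusted p 0.239). Over 32 nuclear oxidative phosphorylation genes the medians were −0.11 in heart and −0.19 in kidney, where 31 of the 32 were negative. Their summed level was 30247 to 33531 CPM in Heart AVF+NX and 34840 to 36782 CPM in Heart NX, without overlap. None was called by edgeR. At an unadjusted p below 0.05 by edgeR, 9 were lower in heart and 10 lower in kidney. Over all genes, 7.94% were lower in heart and 802 of 14689 lower in kidney at that p. DESeq2 called 1 of the 32 lower in heart and 4 lower in kidney. Of the 32, 3 had a positive organ difference at an unadjusted p below 0.05 (edgeR), against 5.94% of all genes.

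Sham libraries, 3 hearts and 4 kidneys scaled over all 23 libraries, place the levels. Il2rb was at 13.7 to 23.1 CPM in Sham hearts and 3.26 to 4.91 CPM in Sham kidneys, and Tcf7 at 6.61 to 7.61 and 2.46 to 3.52 CPM, so that for both genes Kidney NX overlapped Sham and Kidney AVF+NX stood above both. Rps15 was at 295 to 363 CPM in Sham hearts, above the AVF+NX hearts, and at 208 to 238 CPM in Sham kidneys. Heart NX reached 288 CPM as scaled over the 16 libraries. The scalings differ, so the order of Sham and NX hearts in Rps15 is not read. Uap1 was at 31.4 to 44.6 CPM in Sham hearts and Adamtsl2 at 4.33 to 5.70 CPM, below the AVF+NX hearts in both.

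Clock genes varied widely among libraries. Of 19 genes, 0 had an organ difference at an adjusted p below 0.05 by edgeR or DESeq2, and 0 at an unadjusted p below 0.05. Arntl, the clock activator also named Bmal1, was at 61.7, 66.2, 20.1 and 9.22 CPM in Heart AVF+NX 1 to 4 and at 43.9, 45.4, 9.33 and 7.74 CPM in Kidney AVF+NX 1 to 4. In NX it was at 56.8, 25.0, 45.3 and 12.5 CPM in hearts and 44.5, 29.5, 33.7 and 14.6 CPM in kidneys. The hearts and kidneys with the same group and number ranked in the same order in both groups.

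Dbp, a clock output gene that peaks when Arntl is low, was at 10.6, 13.3, 83.8 and 95.2 CPM in Heart AVF+NX and 22.9, 23.6, 118 and 97.7 CPM in Kidney AVF+NX. In NX it was at 16, 64.6, 43.6 and 132 CPM in hearts and 24.7, 41.7, 33.3 and 68.6 CPM in kidneys. Libraries low in Arntl were high in Dbp in both organs. With the log2 ratio of Dbp to Arntl as a covariate, an alternative chosen after seeing the data, 20 genes had an organ difference and 18 of them were among the 34.

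**Figure D5:**
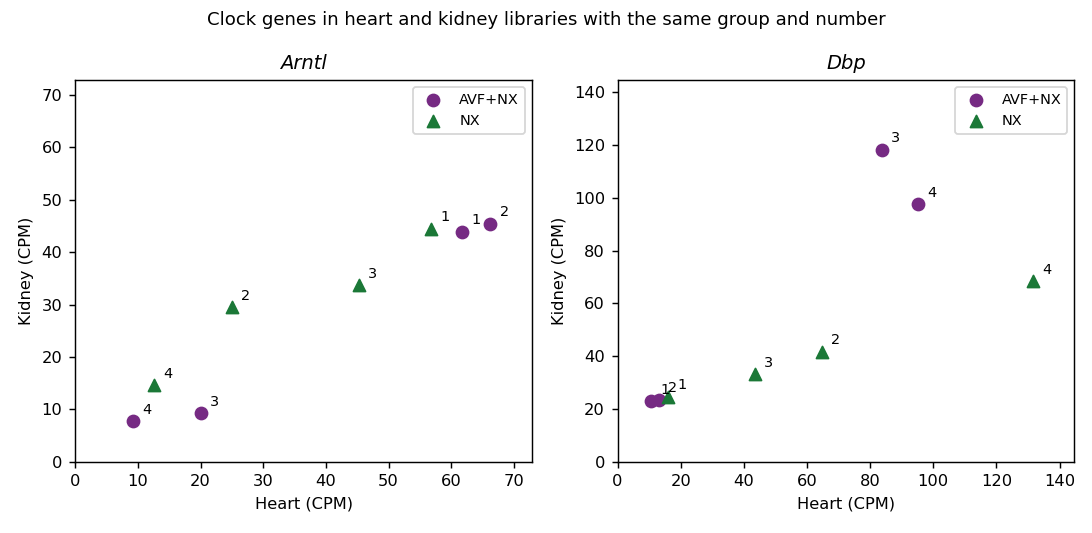
Heart CPM (x axis) against kidney CPM (y axis) of Arntl and Dbp for libraries with the same group and replicate number (printed beside each point). Circles are AVF+NX and triangles NX, and high and low libraries match by number in both organs.

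In the authors' deposited tables for each organ alone, 28 of the 34 genes had an adjusted p below 0.05 for AVF+NX against NX in kidney and 8 in heart. Over all genes, 1123 were below that threshold in the kidney table and 451 in the heart table. The 34 genes were chosen on the same libraries, so these counts are a description. Those tables hold no test of the difference between the organs.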

How the data were processed

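RNA-seq of poly(A) RNA from rat heart and kidney was read from the deposited raw counts per gene. Per the submitters' processing notes, Trimmomatic 0.36, STAR 2.5.2b and featureCounts of Subread 1.5.2 were used. The build, annotation release and strand setting were not given in the sources used here. Further, the authors' deposited tables hold log2 fold changes and p-values for each organ alone, from which calls and their counts only were taken. Their 46 columns of normalised values per sample were not used. Symbols came from the deposited files for 15123 of 32552 gene IDs.

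Counts of 16 libraries were filtered with filterByExpr, scaled by TMM over both organs and fitted with edgeR 4.0.16 in R 4.3.3 as 4 groups without covariates, by the quasi-likelihood test with Benjamini-Hochberg adjustment over 14689 genes (threshold 0.05). The SE was taken as the absolute log2 change over root F. The labels number biological replicates without naming animals, so p-values measure the spread between these samples. Alternatives used DESeq2 1.42.0, limma 3.58.1 and the settings listed in the closing section. The fit across genes was tested on simulated data.

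The members and gene lists were chosen with earlier results of these data known. Genes were named by this rule: in each direction the 15 called genes of smallest p (10 where fewer than 10 were called), the 10 largest called differences in each direction at 1 CPM or more in both organs, up to 3 members of each list with the smallest p, and 17 set genes; a part is printed. Sequences are from the RefSeq promoter table on GRCr8, and coordinates of genes are those of the files.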

Additional observations from a re-analysis of the deposited data

Results flagged for a closer look

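The response to the added fistula differed between heart and kidney in 34 genes by the test of the difference itself. In 7 of them the groups did not overlap in either organ and lay in opposite directions. Their organ differences (heart effect minus kidney effect, log2) were 1.04 for Arhgef28 and 0.98 for Smpx, and −2.18 for Pla2g7, −1.01 for Rps15a, −0.75 for Sema4d, −0.67 for Rps15 and −0.65 for Rps3. Over all genes, 17 (0.116%) lay higher in heart and lower in kidney without overlap, and 24 (0.163%) the reverse. The contrast that chose the 34 genes favours such a pattern in the same libraries, so the count of 7 is a description.

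Single libraries stood apart from the other 3 of their group in 21 of 308 groups checked, by Dixon's criterion on the gap to the nearest library, and chance gives about 1 in 20. In Kidney NX, library 3 was low in Il2rb (2.83 CPM), Mest (1.33 CPM), Cd3g (0.71 CPM), Vim (79.3 CPM) and Jchain (4.52 CPM), and library 1 stood apart in Hk2 (20.1 CPM). In Kidney AVF+NX, library 3 was high in Tcf7 (24.4 CPM) and Bcl11b (21.6 CPM), and library 1 stood apart in Agap2 (14.3 CPM), Postn (139 CPM) and P4ha1 (57.7 CPM). In Heart NX, library 4 stood apart in Cd68 (9.41 CPM), Zap70 (2.77 CPM) and Acadm (860.0 CPM), and library 1 in Aif1l (19.3 CPM) and Mki67 (20.5 CPM). In Heart AVF+NX the values were 3.83 CPM of Prkcz in library 1, 11.6 CPM of Lcn2 and 12.3 CPM of Spp1 in library 2, and 73.7 CPM of P4ha1 and 0.35 CPM of Jchain in library 4.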

How the results depend on the processing

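Each of the 34 called genes kept its sign under every alternative in which it was tested (29 to 31 of 31) and passed the threshold in 9 to 23 of them. Of the 34, 28 were tested with at least 1 CPM in both organs and 29 with each organ fitted alone. The count of organ differences, 34, became 170 with all 23 libraries, 569 with each organ fitted alone and 333 with DESeq2. It became 10 with limma voom, all among the 34. With the log2 total count as a covariate it was 2, and 0 of the 34 stayed called. The short structured RNA index as a covariate gave 5, with 3 among the 34. Of alternatives chosen after seeing the data, the clock index gave 20 (18 among the 34) and leaving out Heart NX 1 and 4 gave 4 (2 among the 34). Leaving out 1 library gave 0 to 80.

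The heart count, 5, became 1 with RLE, 12 without a count filter, 9 with at least 1 CPM in both organs, 383 with all 23 libraries, 524 with DESeq2, 12 with thinned counts, 2 with the RNA index and 1 with the clock index. By edgeR it was 0 with the heart fitted alone (2368 genes at an unadjusted p below 0.05), 0 with the log2 total count (1254) and 0 without Heart NX 1 and 4 (1149). Leaving out 1 library gave 1 to 371. The kidney count, 687, became 1122 with all 23 libraries, 267 with the kidney fitted alone and 1237 with DESeq2, and 281 to 1179 when 1 library was left out. Arntl turned to −0.17 with the clock index, which contains it. The cause of these shifts was not tested.

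The labels do not say that a replicate number marks a shared rat. Correlations of same-numbered deviations over 11209 genes were 0.12 to 0.28 between hearts and kidneys of AVF+NX and −0.05 to 0.09 in NX, so the numbers were not taken as pairs. In AVF+NX every heart correlated best with the kidney of its own number. Same-numbered correlations between the surgery groups, which are different rats, were −0.06 to 0.45 in kidney and −0.10 to 0.17 in heart. A shared number can thus go with a correlation without a shared rat. With the replicate block the organ difference count was 56 by number and 60 by heart and kidney of the same number, the heart count was 1 and the kidney count 917. The block by number kept 34 of the 34 calls, and the block by heart and kidney kept 21. With the number as a block, 5 of the 5 urothelial markers and 1 of the 2 adrenal cortex markers were called higher in kidney.

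Few reads limit Cdnf, Cacng6, Sh3rf3 and Pycr1 in kidney and Runx3, Bhlha15, Jchain and Ms4a1 in heart.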
